A study of Homo sapiens with 12 samples.

Results

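Normoxic A549 cells were compared with normoxic H460 cells, gene by gene. The 4 libraries were chosen by their labels alone, as the 2 normoxic A549 and the 2 normoxic H460 libraries of 12 in the series, and no measured value entered the choice. The study as a whole placed RKO, A549 and H460 cultures in normoxia or hypoxia and sequenced their poly(A)+ RNA, so that this pair gives the baseline of its lung lines. A549 is an established line labelled as lung adenocarcinoma and was grown in DMEM. H460 is an established line labelled as lung large cell carcinoma and was grown in RPMI, and both media held fetal bovine serum and an antibiotic mixture. Neither line carried an engineered allele or received an agent, and normoxia was the routine incubator atmosphere. Line and medium cannot be told apart in any value below, and each tumour type is represented by a single line. The replicates were described as independent biological duplicates, and p-values measure only the spread between these 4 libraries.

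Both lines are standard models of lung cancer. As background, both are known to carry inactivated STK11 and KEAP1 genes and a deletion of the CDKN2A locus on chromosome 9p21, and A549 is further known to lack functional SMARCA4. KEAP1 normally marks the transcription factor NRF2 for destruction, so its loss leaves the antioxidant genes that NRF2 drives switched on. Lung adenocarcinomas often keep traits of the alveolar or airway epithelium, whereas large cell carcinomas are defined by the lack of glandular, squamous or neuroendocrine features.

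Summed counts were 40087914 and 38302811 in the A549 libraries and 27350424 and 32421780 in the H460 libraries, and each library had a count for 17513 to 18031 genes. The most abundant transcript in each library was EEF1A1, at 0.696% to 0.863% of the counts. Values are given as CPM, counts scaled to 1e+06 per library after TMM scaling, where 3 counts equal 0.0751 to 0.111 CPM. Replicates were closer in H460 than in A549, with a median absolute log2 difference between the 2 libraries of 0.123 in H460 and 0.224 in A549. Differences between lines are log2 ratios of A549 to H460 with their standard error, so that a positive value is higher in A549. For a called gene with at most 3 counts in the 2 libraries of the lower line, the count ratio is given instead, which is that of the summed counts of the higher to the lower line, scaled by library size. Its exact 95% interval covers counting error only, and where the lower line had no count a lower bound is given that uses 3 counts over its 2 libraries.

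Marker genes of other cell types were read to check the labelled identity of the cultures. PTPRC, the pan-leukocyte surface protein, stood at 0.025 and 0.0257 CPM in A549 against no count in H460. PECAM1, an endothelial adhesion protein, was at 0.050 and 0 CPM in A549 against 0 and 0.0614 CPM in H460. The 18 stromal, endothelial and leukocyte markers summed to 80.5 and 109 CPM in A549 and to 56.5 and 57.7 CPM in H460. The mesenchymal collagen COL1A1 measured 49.3 and 87.4 CPM in A549 against 11.4 and 11.5 CPM in H460 (log2 2.58 ± 0.26, adjusted p = 5.92e-05). COL3A1, its fibrillar partner, gave 0.050 and 0.0515 CPM in A549 against 9.32 and 15.3 CPM in H460 (log2 -7.82 ± 0.47, adjusted p = 2.67e-06). PDGFRB, a receptor of pericytes and fibroblasts, was called in the same direction as COL3A1, at 13.7 and 12.6 CPM in H460 against 0.325 and 0.257 CPM in A549 (log2 -5.48 ± 0.29). The smooth muscle actin ACTA2 was called in the opposite one, at 16.8 and 10.9 CPM in A549 against 4.64 and 4.73 CPM in H460 (log2 1.56 ± 0.26).

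The lung lineage list held genes of either line, while its most specific markers were at or near 0 in both. Of its 22 genes 11 were tested, 6 were called higher in A549 and 4 in H460, and the median log2 difference was 0.61. Without A549 replicate 1 the calls were 3 and 4 of 10 tested genes, with a median of -0.06. The counts of the list summed to 409 and 316 CPM in A549 and to 388 and 348 CPM in H460. NKX2-1, the master regulator of the lung epithelium, was counted at 0.025 and 0.129 CPM in A549 against 0.0743 and 0 CPM in H460 and did not pass the filter on low counts. SFTPB, a surfactant protein of alveolar type II cells, was at 0.025 and 0 CPM in A549 against no count in H460, and SFTPC, the surfactant protein most specific to those cells, was at 0.025 and 0.0772 CPM in A549 against 0 and 0.0307 CPM in H460. The label of lung origin therefore could not be checked by these 3 markers in normoxia. In the hypoxic libraries NKX2-1 was at 3.26 and 3.05 CPM in H460 against 0.171 and 0.129 CPM in A549 (log2 -4.35 ± 0.37, adjusted p = 4.62e-05). FOXA2, a forkhead factor that opens endodermal genes, gave 27.9 and 24.4 CPM in A549 against 0.111 and 0.0307 CPM in H460 (log2 8.52 ± 0.37, adjusted p = 4.27e-07, with 9.54 without H460 replicate 1 and 7.78 without H460 replicate 2). HOPX, a homeodomain protein of alveolar type I cells, was nearly confined to H460, at 46.1 and 39.2 CPM in H460 against 0 and 0.0772 CPM in A549 (count ratio 1111, interval 379.7 to 5391). NAPSA, an aspartic protease used to recognise lung adenocarcinoma, was low but higher in A549, at 4.1 and 3.42 CPM in A549 against 0.446 and 0.706 CPM in H460 (log2 2.68 ± 0.35, adjusted p = 0.000258). HHIP, a hedgehog inhibitor of the distal lung, was higher in H460, at 5.39 and 3.96 CPM in H460 against 0.425 and 0.669 CPM in A549 (log2 -3.08 ± 0.36, adjusted p = 0.000127). ABCA3, the lipid transporter of lamellar bodies, gave 52 and 49.6 CPM in A549 against 35.9 and 30.5 CPM in H460 (log2 0.61 ± 0.15, adjusted p = 0.00792, with 0.45 and not called without H460 replicate 2).

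The lines differed in 52.6% of the genes tested. Of 25369 genes in the table, 14835 passed a filter of more than 0.5 CPM in at least 2 libraries, and 7804 of these were called at an adjusted p under 0.1 and a fold over 1.5. A549 was higher for 4008 genes (27.0%) and H460 for 3796 (25.6%). The calls of each gene list are to be read against these shares. The fold exceeded 10 for 881 genes higher in A549 and 744 higher in H460, and 100 for 313 and 307 genes. The median log2 difference of all tested genes was 0.0037 and the median standard error 0.185. For 12056 of the tested genes, 81.3%, the values of the 2 lines did not overlap. A gene silent in one line passes the filter only through the other and had to differ, so the called share within a list is a description and not support for it. With 1 A549 library left out, a gene counted in A549 alone no longer passes the filter, so counts over a list then cover fewer genes, and the larger of these moves are given beside the list. Of the 191 tested genes named by rule in the text 173 were called, at adjusted p-values from 7.9e-08 to 0.0646. In 172 of them, NUPR1 being the exception, the libraries of the lines did not overlap, as in 7793 of all 7804 called genes. For the genes named for the largest log2 differences the rule itself required no overlap.

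**Figure D1:**
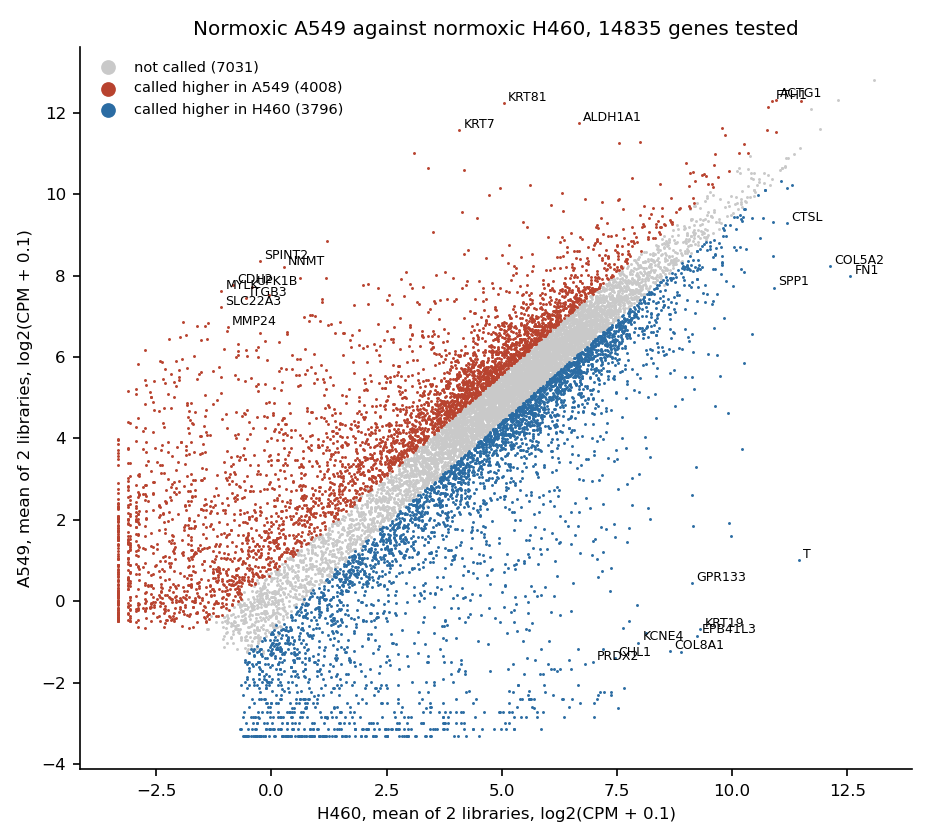
Mean CPM of the 2 H460 libraries (x axis) against that of the 2 A549 libraries (y axis), both as log2(CPM + 0.1), for the 14835 tested genes, with red points called higher in A549 (4008), blue points called higher in H460 (3796) and grey points not called. Labelled genes such as KRT81 and T lie far from the diagonal, and the points along the left and lower edges are genes with few or no counts in one line.

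Some genes acted as switches, present in one line and at most 3 counts in the 2 libraries of the other. There were 319 such genes in A549 and 270 in H460, and 127 and 111 of them had no count at all in the lower line. WNT7B, a WNT ligand of the developing lung epithelium, was the most abundant switch gene of A549 at 84.8 and 58.8 CPM in A549 against 0.0371 and 0.0614 CPM in H460 (count ratio 1428, interval 488 to 6925). GABRA5, a subunit of the GABA-A receptor, followed at 62.7 and 50.9 CPM in A549 against 0.0371 and 0.0307 CPM in H460 (count ratio 1692, interval 468 to 13979). The others of the leading 8 were TSPYL5, SAGE1, PNMAL1, VGLL3, PPP1R14A and SLC4A4. VGLL3, a cofactor of TEAD transcription factors, stood at 27.4 and 44.6 CPM in A549 against 0 and 0.0307 CPM in H460 (count ratio 2136, interval 383 to 84408). SLC4A4, a sodium bicarbonate cotransporter, was at 30.0 and 27.5 CPM in A549 against 0.0371 and 0.0614 CPM in H460 (count ratio 570.4, interval 195 to 2768). SAGE1, a cancer-testis antigen on chromosome X, was at 35.8 and 44.2 CPM in A549 against 0.0743 and 0.0307 CPM in H460 (count ratio 792, interval 271 to 3841). PPP1R14A, an inhibitor of myosin phosphatase, was at 43.4 and 24.5 CPM in A549 against 0 and 0.0614 CPM in H460 (count ratio 1013, interval 280.3 to 8372).

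Among the switch genes of H460, the open reading frame C3orf49 was the most abundant, at 122 and 136 CPM in H460 against 0.050 and 0.0257 CPM in A549 (count ratio 3404, interval 1164 to 16511). HS6ST2, which sulphates heparan chains, was at 88.3 and 73.8 CPM in H460 against 0.025 and 0.0515 CPM in A549 (count ratio 2111, interval 722 to 10241). DPP10, an inactive peptidase that accompanies potassium channels, was at 55.8 and 59.1 CPM in H460 against 0.025 and 0 CPM in A549 (count ratio 4540, interval 814 to 179367). All 3 had at most 3 counts in the A549 libraries together. LCN1, GPR65, ACSS3 and ANO3 completed the leading 8 with HOPX. GPR65, a proton-sensing receptor, measured 37.1 and 39.6 CPM in H460 against 0.025 and 0 CPM in A549 (count ratio 3030, interval 543 to 119718). ACSS3, a mitochondrial acyl-CoA synthetase, gave 34.1 and 36.8 CPM in H460 against 0.050 and 0 CPM in A549 (count ratio 1403, interval 388 to 11592).

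Among genes with at least 20 counts in the 2 libraries of the lower line, the largest differences ran to more than 10 log2 units. T, which encodes the mesodermal transcription factor brachyury (chr6:166571146-166582157, as all gene positions here in GRCh37), gave 2568 and 3031 CPM in H460 against 2.0 and 1.85 CPM in A549 (log2 -10.50 ± 0.23, adjusted p = 7.9e-08). EPB41L3, a cytoskeletal linker at the membrane, gave 610.1 and 603 CPM in H460 against 0.475 and 0.438 CPM in A549 (log2 -10.36 ± 0.21, adjusted p = 7.9e-08). KRT19, the smallest type I keratin of simple epithelia (chr17:39679869-39684641), gave 668 and 597 CPM in H460 against 0.575 and 0.463 CPM in A549 (log2 -10.24 ± 0.22, adjusted p = 7.9e-08). All 3 genes were at most at 2.00 CPM in A549 and at least at 597 CPM in H460. COL8A1, a short-chain collagen, was at 437 and 365 CPM in H460 against 0.50 and 0.154 CPM in A549 (log2 -10.23 ± 0.36, adjusted p = 1.38e-07, with -11.25 without A549 replicate 1 and -9.58 without A549 replicate 2). KCNE4, a potassium channel subunit, gave 275 and 223 CPM in H460 against 0.325 and 0.463 CPM in A549 (log2 -9.29 ± 0.25). The neural adhesion protein CHL1 gave 203 and 146 CPM in H460 against 0.275 and 0.283 CPM in A549 (log2 -9.27 ± 0.28). PRDX2, a cytosolic peroxidase that most cells express (chr19:12907634-12912724), was close to absent from A549, with 136 and 116 CPM in H460 against 0.30 and 0.206 CPM in A549 (log2 -8.93 ± 0.25, adjusted p = 1.01e-07). GPR133, an adhesion receptor, completed the 8, at 593 and 521 CPM in H460 against 1.55 and 0.952 CPM in A549 (log2 -8.79 ± 0.26).

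In the other direction MYLK, the kinase that phosphorylates myosin light chains, gave 208 and 184 CPM in A549 against 0.223 and 0.522 CPM in H460 (log2 8.98 ± 0.28, adjusted p = 1.06e-07, with 9.71 without H460 replicate 2). CDH2, the N-cadherin of mesenchymal and neural cells, gave 192 and 245 CPM in A549 against 0.371 and 0.553 CPM in H460 (log2 8.86 ± 0.26, adjusted p = 1.02e-07). SPINT2, an inhibitor of serine proteases on epithelia, gave 363 and 293 CPM in A549 against 0.594 and 0.89 CPM in H460 (log2 8.76 ± 0.25, adjusted p = 1.02e-07). These 3 were below 1 CPM in each H460 library. SLC22A3, an organic cation transporter, was at 134 and 168 CPM in A549 against 0.149 and 0.583 CPM in H460 (log2 8.61 ± 0.37, adjusted p = 3.75e-07, with 7.96 without H460 replicate 1 and 9.90 without H460 replicate 2). UPK1B, a tetraspanin of the urothelium, gave 224 and 199 CPM in A549 against 0.594 and 0.706 CPM in H460 (log2 8.33 ± 0.21). ITGB3, the beta subunit of the vitronectin receptor, gave 140.4 and 209 CPM in A549 against 0.483 and 0.675 CPM in H460 (log2 8.21 ± 0.30). NNMT, which methylates nicotinamide, was at 261 and 336 CPM in A549 against 0.891 and 1.32 CPM in H460 (log2 8.06 ± 0.25). The membrane protease MMP24 was at 96.1 and 117 CPM in A549 against 0.409 and 0.43 CPM in H460 (log2 7.97 ± 0.23).

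The genes with the largest differences in CPM, a measure not corrected for gene length, were of several kinds, among them keratins, matrix proteins, enzymes and a transcription factor. KRT81, a hair keratin, gave 4777 and 4958 CPM in A549 against 28.7 and 37.3 CPM in H460 (log2 7.20 ± 0.22, adjusted p = 1.06e-07). KRT7, a simple epithelial keratin, gave 2681 and 3439 CPM in A549 against 16.1 and 17.6 CPM in H460 (log2 7.50 ± 0.22, adjusted p = 1.06e-07). ALDH1A1, a retinaldehyde dehydrogenase, gave 3209 and 3693 CPM in A549 against 109 and 94.1 CPM in H460 (log2 5.08 ± 0.19, adjusted p = 1.81e-07). FTH1, the ferritin heavy chain that stores iron, was at 5210 and 4893 CPM in A549 against 1918 and 1790 CPM in H460 (log2 1.45 ± 0.15). ACTG1, cytoplasmic actin, was at 5632 and 4692 CPM in A549 against 1921 and 2029 CPM in H460 (log2 1.39 ± 0.16). These 5 were higher in A549. FN1, fibronectin, led in H460 with 6617 and 5467 CPM in H460 against 249.99 and 262 CPM in A549 (log2 -4.56 ± 0.19, adjusted p = 2.89e-07). COL5A2, a fibrillar collagen chain, gave 4477 and 4404 CPM in H460 against 246 and 354 CPM in A549 (log2 -3.89 ± 0.21). SPP1, osteopontin, gave 2052 and 1765 CPM in H460 against 219 and 200.1 CPM in A549 (log2 -3.19 ± 0.16). T, given above, was among them. CTSL, a lysosomal protease, differed least of this group, at 2527 and 2116 CPM in H460 against 602 and 649.7 CPM in A549 (log2 -1.89 ± 0.16).

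**Figure D2:**
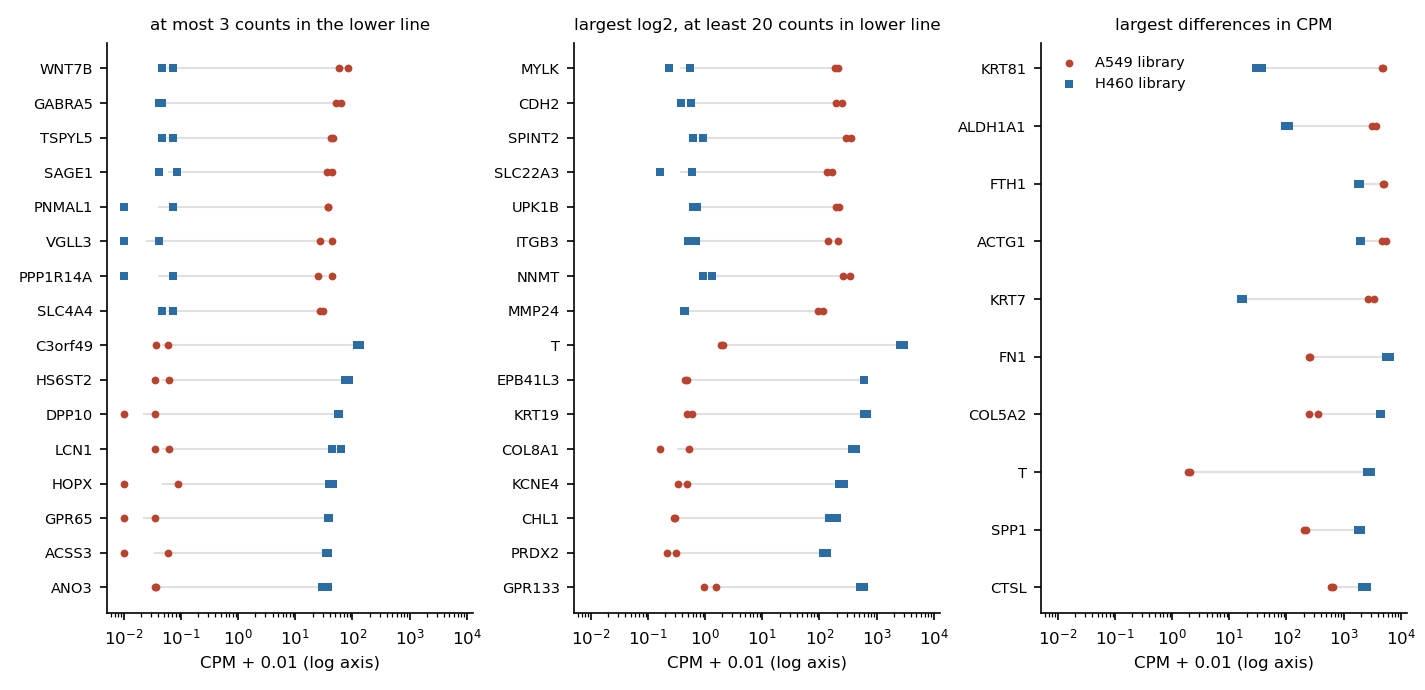
CPM + 0.01 on a log axis for each library (red circles A549, blue squares H460) of the 16 switch genes (left), the 16 genes with the largest log2 differences among those with at least 20 counts in the lower line (middle) and the 10 genes with the largest differences in CPM (right), with a grey line joining the 2 line means. In each row the libraries of one line lie apart from those of the other, as for T at 2568 and 3031 CPM in H460 against 2.00 and 1.85 CPM in A549. All are called genes, and those in the middle were chosen for no overlap, so the separation follows from the choice.

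The epithelial list leaned to A549, and its members called higher in H460 were KRT19, SPINT1 and CLDN1. Of its 24 genes 18 were tested, 13 were called higher in A549 and 3 in H460, and the median log2 difference was 2.01. CDH1, E-cadherin, the adhesion protein of epithelial junctions, gave 74 and 68.8 CPM in A549 against 0.483 and 0.522 CPM in H460 (log2 7.14 ± 0.22, adjusted p = 1.06e-07). EPCAM, a surface glycoprotein of epithelia, gave 17.7 and 16.5 CPM in A549 against 0.483 and 0.522 CPM in H460 (log2 5.07 ± 0.26, adjusted p = 1.06e-06). Both genes were below 1 CPM in H460. ST14, the membrane protease matriptase, was counted in A549 alone, at 0.851 and 1.08 CPM in A549 against no count in H460 (at least 19.1-fold higher). Its inhibitor SPINT1 was higher in H460, at 1.93 and 1.63 CPM in H460 against 0.40 and 0.515 CPM in A549 (log2 -1.95 ± 0.36, adjusted p = 0.00173). CLDN1, a claudin of tight junctions, gave 197 and 178 CPM in H460 against 61.3 and 144 CPM in A549 (log2 -0.87 ± 0.33, adjusted p = 0.0474, with -0.32 and not called without A549 replicate 1 and -1.56 without A549 replicate 2). KRT8, the type II keratin of simple epithelia, was abundant in both lines at 1863 and 1530 CPM in A549 against 815 and 743 CPM in H460 (log2 1.12 ± 0.16, adjusted p = 0.000395). ESRP1, a splicing factor that marks the epithelial state, was at 0.40 and 0.309 CPM in A549 against 0.297 and 0.614 CPM in H460 and did not pass the filter.

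Mesenchymal genes leaned the same way by calls but not by summed RNA. The list summed to 8259 and 8831 CPM in A549 and to 10827 and 9248 CPM in H460. With all libraries its members called higher in H460 were FN1, given above, and ZEB2. Of 19 tested genes 13 were called higher in A549 and 2 in H460, with a median of 1.57, and 10 and 3 of 16 with a median of 0.81 without A549 replicate 1. VIM, the intermediate filament vimentin, was high in both, at 2265 and 1869 CPM in A549 against 1188 and 1097 CPM in H460 (log2 0.86 ± 0.16, adjusted p = 0.00175). TWIST1, a transcription factor of mesodermal cells, was counted in A549 only, at 3.55 and 3.17 CPM in A549 against no count in H460 (at least 66.7-fold higher). The receptor kinase AXL gave 542 and 626 CPM in A549 against 49.996 and 43 CPM in H460 (log2 3.65 ± 0.16, adjusted p = 4.97e-07). The zinc finger repressors of CDH1 were divided. ZEB2 was higher in H460, at 42 and 49.3 CPM in H460 against 13.24 and 15.5 CPM in A549 (log2 -1.67 ± 0.17, adjusted p = 6.38e-05). ZEB1 gave 31.4 and 37.5 CPM in A549 against 19.9 and 24.7 CPM in H460 (log2 0.63 ± 0.18, adjusted p = 0.0154, with 0.55 and not called without A549 replicate 2 and 0.43 and not called without H460 replicate 1).

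Plasma protein and hepatic or gut genes had the highest median of the lists with all libraries, which rested on members counted almost only in A549. Of 21 genes 11 were tested, 8 were called higher in A549 and 2 in H460, and the median was 4.24. Without either A549 library 5 genes were tested, 2 were called in each direction, and the median was 0.28 without replicate 1 and 0.48 without replicate 2. HNF4A, a nuclear receptor of liver and gut, was at 27 and 32.2 CPM in A549 against 0.0743 and 0.0614 CPM in H460 (log2 8.71 ± 0.33, adjusted p = 2.14e-07). CDH17, the liver-intestine cadherin, was likewise at 2.63 and 2.34 CPM in A549 against no count in H460 (at least 49.3-fold higher). The list's H460-higher members were CPS1, the urea cycle enzyme that makes carbamoyl phosphate, at 1376 and 1132 CPM in H460 against 342 and 461 CPM in A549 (log2 -1.64 ± 0.19, adjusted p = 0.000117), and FGG. FGG, a fibrinogen chain, was at 57.9 and 47.6 CPM in H460 against 0.25 and 0.283 CPM in A549 (log2 -7.61 ± 0.25, adjusted p = 1.19e-07). The fibrinogen beta chain FGB, a neighbour of FGG, was low in both, at 1.15 and 1.0 CPM in A549 against 0.891 and 0.829 CPM in H460 (log2 0.33 ± 0.34, adjusted p = 0.433, not called).

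Of 8 tested airway secretory genes, 5 were called higher in A549 and 2 in H460, and the median was 3.24, or 3.12 with genes at no count in H460 set to their bound. Without A549 replicate 1 the calls were 2 and 2 of 5 tested genes with a median of 0.34, and without A549 replicate 2 they were 3 and 2 with a median of 0.88. FOXA3, a forkhead factor of secretory cells, gave 1.03 and 1.16 CPM in A549 against no count in H460 (at least 21.6-fold higher). AGR2, a disulphide isomerase of mucous cells, was the exception with the most RNA, at 1046 and 871 CPM in H460 against 31.6 and 17.3 CPM in A549 (log2 -5.29 ± 0.30, adjusted p = 1.88e-06). SLPI, a secreted protease inhibitor, was also higher in H460, at 11.6 and 10.2 CPM in H460 against 3.88 and 2.42 CPM in A549 (log2 -1.79 ± 0.27, adjusted p = 0.00063). The gel-forming mucin MUC5B gave 10.5 and 7.34 CPM in A549 against 0.52 and 0.276 CPM in H460 (log2 4.50 ± 0.38, adjusted p = 1.97e-05). LCN2, a siderophore-binding protein, gave 1.35 and 0.566 CPM in A549 against no count in H460 (at least 19.1-fold higher).

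Some neuroendocrine genes were present in each line, and calls went in both directions. Of 8 tested genes 3 were called higher in A549 and 4 in H460, with a median of -0.65. CHGA, the granule protein chromogranin A, gave 41.6 and 27.2 CPM in H460 against 0.525 and 0.438 CPM in A549 (log2 -6.15 ± 0.31, adjusted p = 9.62e-07). NCAM1, a neural adhesion protein, gave 164 and 109 CPM in H460 against 1.33 and 1.49 CPM in A549 (log2 -6.60 ± 0.26, adjusted p = 2.74e-07). CHGB, chromogranin B, went the other way at 3.83 and 6.0 CPM in A549 against 0.891 and 0.583 CPM in H460 (log2 2.74 ± 0.37, adjusted p = 0.000318). UCHL1, a neuronal ubiquitin hydrolase, was high in both lines, at 930.2 and 937 CPM in H460 against 519.9 and 492 CPM in A549 (log2 -0.88 ± 0.14, adjusted p = 0.000627). The neuronal enolase ENO2 gave 96.6 and 70.5 CPM in A549 against 36.7 and 32.9 CPM in H460 (log2 1.26 ± 0.18, adjusted p = 0.000425). Basal and squamous markers were few. SERPINB5, maspin, was nearly exclusive to H460, at 82.9 and 76 CPM in H460 against 0.0751 and 0.103 CPM in A549 (log2 -9.75 ± 0.26, adjusted p = 9.85e-08). TP63, a transcription factor of basal cells, was low and nearly confined to A549, at 3.23 and 4.04 CPM in A549 against 0.0743 and 0 CPM in H460 (count ratio 108, interval 29.6 to 896). KRT17 was at 0.25 and 0.463 CPM in A549 against 0.0371 and 0 CPM in H460. SOX2 was at 4.85 and 1.7 CPM in A549 against 3.19 and 2.55 CPM in H460 (log2 0.20 ± 0.45, adjusted p = 0.731, not called).

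**Figure D3:**
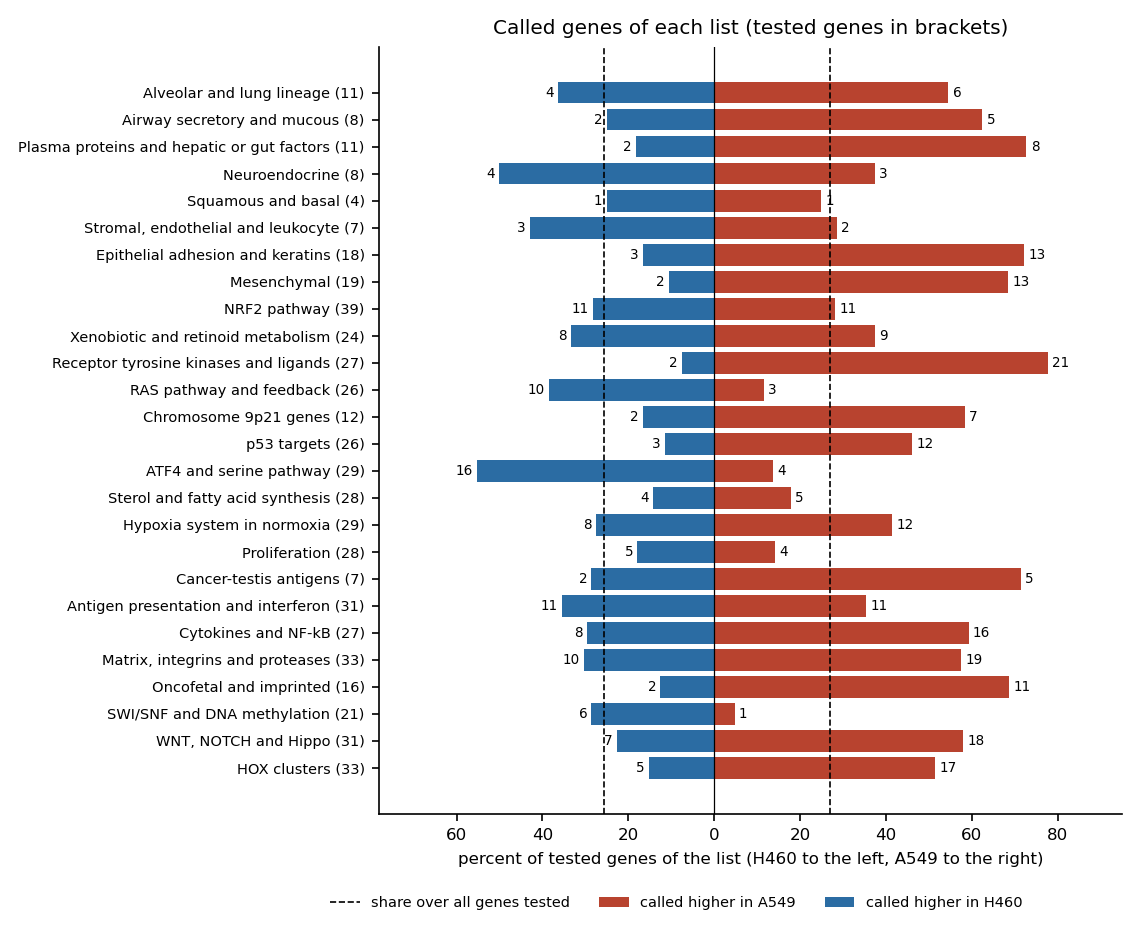
For each of 26 gene lists, the percent of its tested genes called higher in A549 (red, to the right) and higher in H460 (blue, to the left), with the number of called genes at each bar's end, the number tested in brackets and dashed lines at 27.0% and 25.6%, the shares over all 14835 tested genes. Receptor tyrosine kinases and ligands (21 and 2 of 27) and mesenchymal genes (13 and 2 of 19) lie to the A549 side, and the ATF4 and serine pathway (4 and 16 of 29) and RAS feedback (3 and 10 of 26) to the H460 side.

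Receptors and their ligands were mostly higher in A549, while in the pathway below them 13 of 26 genes were not called and most of the others were higher in H460. Receptor tyrosine kinases span the membrane, bind growth factors and activate RAS and the ERK kinases, and ERK in turn switches on phosphatases and inhibitors that limit the signal. Of 27 tested receptors and ligands 21 were called higher in A549 and 2 in H460, with a median of 2.09. Among receptors, EGFR gave 155 and 216 CPM in A549 against 44.6 and 42.4 CPM in H460 (log2 2.09 ± 0.18, adjusted p = 2.18e-05). MET, the receptor of hepatocyte growth factor, gave 441 and 490.1 CPM in A549 against 139.8 and 126 CPM in H460 (log2 1.81 ± 0.14, adjusted p = 1.31e-05). ERBB3 gave 3.1 and 5.23 CPM in A549 against 1.71 and 1.81 CPM in H460 (log2 1.24 ± 0.33, adjusted p = 0.0114). ROS1, an orphan receptor kinase, was nearly absent from H460, at 19.9 and 34.1 CPM in A549 against 0.0743 and 0.123 CPM in H460 (log2 8.02 ± 0.45, adjusted p = 1.72e-06). The 2 receptors higher in H460 were NTRK2, the receptor of brain-derived neurotrophic factor, at 12.4 and 9.24 CPM in H460 against 0.050 and 0.0515 CPM in A549 (log2 -7.64 ± 0.42, adjusted p = 1.44e-06), and DDR2. DDR2, a collagen receptor, was at 1.37 and 1.14 CPM in H460 against 0.751 and 0.489 CPM in A549 (log2 -1.01 ± 0.38, adjusted p = 0.046, with -0.67 and not called without A549 replicate 2 and -0.92 and not called without H460 replicate 1). Among ligands, the EGFR ligand epiregulin, EREG, gave 231 and 264 CPM in A549 against 1.89 and 2.43 CPM in H460 (log2 6.83 ± 0.20, adjusted p = 1.02e-07). FGFBP1, a carrier of fibroblast growth factors, gave 7.71 and 2.06 CPM in A549 against 0 and 0.0307 CPM in H460 (count ratio 293, interval 52.3 to 11598).

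Of the 26 tested RAS pathway and feedback genes 3 were called higher in A549 and 10 in H460, with a median of -0.14, so that 50% were called against 52.6% over all genes. HRAS, a GTPase, gave 54.2 and 34.8 CPM in A549 against 23.1 and 21.5 CPM in H460 (log2 1.00 ± 0.22, adjusted p = 0.0043). PIK3CA, the catalytic subunit of a lipid kinase, gave 14.8 and 19 CPM in A549 against 16.2 and 15.3 CPM in H460 (log2 0.10 ± 0.19, adjusted p = 0.668, not called). DUSP6, a phosphatase that inactivates ERK, was the gene with the largest difference, at 139 and 156 CPM in H460 against 3.5 and 6.77 CPM in A549 (log2 -4.84 ± 0.29, adjusted p = 2.68e-06). ETV1, an ETS transcription factor of the same feedback group, gave 144 and 134 CPM in H460 against 5.63 and 9.83 CPM in A549 (log2 -4.17 ± 0.26, adjusted p = 3e-06). For either gene both A549 libraries lay far below both H460 libraries. FOSL1, an AP-1 subunit that ERK stabilises, was instead higher in A549, at 159 and 128 CPM in A549 against 29.2 and 29.7 CPM in H460 (log2 2.29 ± 0.16, adjusted p = 5.21e-06).

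NRF2 pathway genes were called in both directions, at a share near that of all genes. NRF2 target genes make glutathione and NADPH, reduce quinones and export conjugates. All 39 listed genes were tested, 11 were called higher in A549 and 11 in H460, 56.4% in all against 52.6% over all genes, and the median was -0.17. Their counts summed to 25670 and 24220 CPM in A549 and 23253 and 22341 CPM in H460. NFE2L2, which encodes NRF2, gave 147 and 155 CPM in H460 against 71.9 and 99 CPM in A549 (log2 -0.82 ± 0.17, adjusted p = 0.00328, with -0.55 and not called without A549 replicate 1). KEAP1, its inhibitor, gave 85 and 68.7 CPM in A549 against 73 and 68.5 CPM in H460 (log2 0.12 ± 0.15, adjusted p = 0.523, not called). NQO1, the quinone reductase used as a readout of NRF2, was abundant in each library, at 1287 and 1207 CPM in A549 against 1654 and 1631 CPM in H460 (log2 -0.40 ± 0.14, adjusted p = 0.0364, not called). GCLM, a subunit of the enzyme that begins glutathione synthesis, gave 124 and 117 CPM in A549 against 138 and 133 CPM in H460 (log2 -0.17 ± 0.13, adjusted p = 0.281, not called). The aldo-keto reductase AKR1B10 gave 1212 and 827 CPM in A549 against 828 and 718 CPM in H460 (log2 0.40 ± 0.20, adjusted p = 0.111, not called). AKR1C1, which shares most of its sequence with other AKR1C genes so that reads can be lost between them, gave 768 and 804 CPM in H460 against 366 and 206 CPM in A549 (log2 -1.46 ± 0.25, adjusted p = 0.00108).

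The members that differed most were on both sides. HMOX1, haem oxygenase, gave 396 and 352 CPM in A549 against 51.9 and 48.6 CPM in H460 (log2 2.89 ± 0.15, adjusted p = 9.3e-07). GPX2, a gut glutathione peroxidase, was nearly confined to A549, at 26.7 and 12.2 CPM in A549 against 0 and 0.0614 CPM in H460 (count ratio 582, interval 161 to 4810). SRXN1, which repairs oxidised peroxiredoxins, gave 872 and 853 CPM in H460 against 269 and 259 CPM in A549 (log2 -1.71 ± 0.14, adjusted p = 1.37e-05). The epoxide hydrolase EPHX1 gave 490.2 and 367 CPM in H460 against 106 and 87.4 CPM in A549 (log2 -2.14 ± 0.19, adjusted p = 2.22e-05). In the wider list of xenobiotic and retinoid enzymes 9 of 24 tested genes were called higher in A549 and 8 in H460, with a median of 0.0055. In all 70.8% of that list were called, against 52.6% over all genes. CYP24A1, which degrades active vitamin D, gave 1211 and 2012 CPM in A549 against 9.55 and 11.5 CPM in H460 (log2 7.26 ± 0.31, adjusted p = 3.57e-07). CYP3A5, a drug-oxidising enzyme of liver and lung, gave 20.8 and 17.3 CPM in A549 against 0.334 and 0.491 CPM in H460 (log2 5.50 ± 0.29, adjusted p = 1.26e-06). GSTT1, a glutathione transferase that some genomes lack, was near 0 in A549, at 32.6 and 28.9 CPM in H460 against 0.025 and 0.0772 CPM in A549 (log2 -9.14 ± 0.35, adjusted p = 2.2e-07, with -8.51 without A549 replicate 1 and -10.01 without A549 replicate 2). The fatty acid hydroxylase CYP4F11 gave 281 and 274 CPM in H460 against 17.3 and 15.2 CPM in A549 (log2 -4.09 ± 0.15, adjusted p = 1.83e-07). The cholinesterase BCHE gave 49 and 40.3 CPM in H460 against 1.85 and 1.78 CPM in A549 (log2 -4.62 ± 0.21, adjusted p = 4.59e-07). ALDH3A1, an aldehyde dehydrogenase of the cornea and airways, differed between the A549 replicates, at 612 and 254 CPM in A549 against 627 and 476 CPM in H460 (log2 -0.35 ± 0.35, adjusted p = 0.414, not called).

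Amino acid synthesis genes were mostly higher in H460. ATF4 is a transcription factor whose translation increases when amino acids are short, and its targets make serine, glycine, asparagine and cysteine or import amino acids. Of 29 tested genes 4 were called higher in A549 and 16 in H460, with a median of -1.13. ATF4 itself gave 863 and 889 CPM in H460 against 272 and 360.2 CPM in A549 (log2 -1.47 ± 0.17, adjusted p = 0.000116). PHGDH, which starts serine synthesis, gave 369 and 361 CPM in H460 against 32.5 and 99.9 CPM in A549 (log2 -2.46 ± 0.43, adjusted p = 0.00125, with -1.81 without A549 replicate 1 and -3.43 without A549 replicate 2). The enzymes of cysteine synthesis had the largest differences of the list. CTH gave 67.5 and 64.5 CPM in H460 against 2.43 and 8.44 CPM in A549 (log2 -3.60 ± 0.46, adjusted p = 0.000228, with -2.91 without A549 replicate 1 and -4.70 without A549 replicate 2). CBS gave 228 and 239.6 CPM in H460 against 13 and 60.3 CPM in A549 (log2 -2.67 ± 0.56, adjusted p = 0.00342, with -1.90 without A549 replicate 1 and -4.11 without A549 replicate 2). SLC7A5, the large neutral amino acid transporter, was the opposite, at 1853 and 2222 CPM in A549 against 863 and 712 CPM in H460 (log2 1.37 ± 0.17, adjusted p = 0.000179).

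The A549 replicates diverged in this list. ASNS, asparagine synthetase, gave 593 and 582 CPM in H460 against 46.7 and 226 CPM in A549 (log2 -2.11 ± 0.57, adjusted p = 0.0118, with -1.32 without A549 replicate 1 and -3.59 without A549 replicate 2). CHAC1, which degrades glutathione, gave 48.8 and 52.3 CPM in H460 against 2.53 and 25.9 CPM in A549 (log2 -1.83 ± 0.75, adjusted p = 0.0646, with -0.91 without A549 replicate 1 and -4.26 without A549 replicate 2). NUPR1, a small stress-induced nuclear protein, gave 6.86 and 40.7 CPM in A549 against 5.13 and 7.83 CPM in H460 (log2 1.87 ± 0.67, adjusted p = 0.0384, with 2.70 without A549 replicate 1 and 0.13 and not called without A549 replicate 2). A549 replicate 1 was the lower of the 2 for each of these genes. The summed CPM of the list was 4522 and 7111 in the A549 libraries and 8111 and 7819 in the H460 libraries. Without A549 replicate 1 the calls were 5 higher in A549 and 15 in H460 with a median of -0.72, and without A549 replicate 2 they were 2 and 21 with a median of -1.89. RPMI and DMEM differ in amino acids, and the part of the medium in these values cannot be told apart from that of the line.

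**Figure D4:**
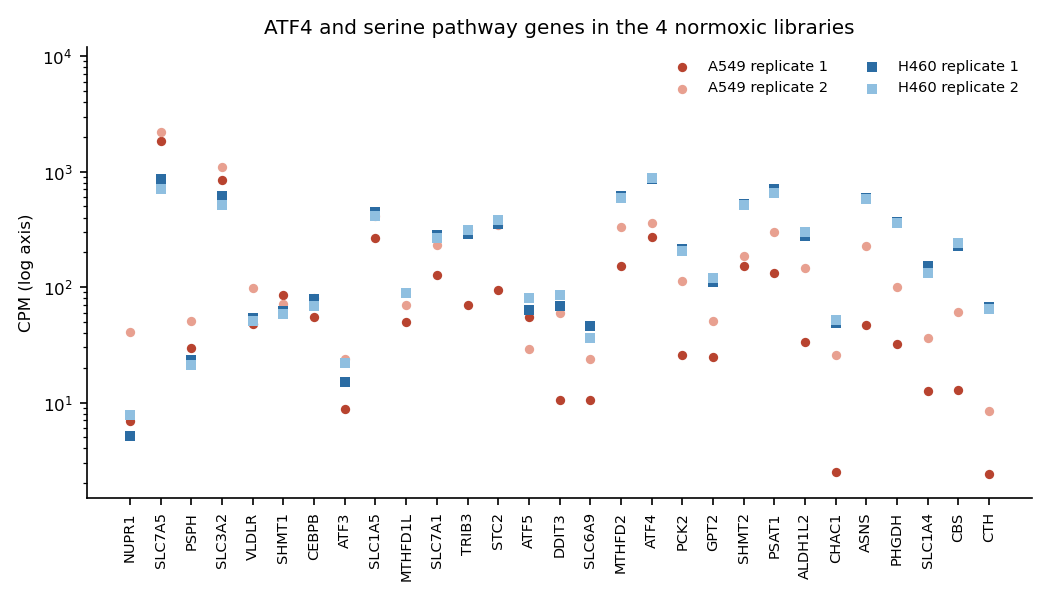
CPM on a log axis in each of the 4 normoxic libraries (dark and light red circles A549 replicates 1 and 2, dark and light blue squares H460 replicates 1 and 2) for the 29 tested genes of the ATF4 and serine pathway, ordered by their log2 difference. For ASNS the A549 circles are apart, at 46.7 and 226 CPM, and the H460 squares nearly coincide, at 593 and 582 CPM, whereas for NUPR1 the H460 squares, at 5.13 and 7.83 CPM, are apart too.

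CDKN2A was not detected in either line. CDKN2A, which encodes the cell cycle inhibitor p16, had no count in any of the 4 libraries, which allows up to 3 counts, or 0.0751 to 0.111 CPM, in each. CDKN2B, its neighbour and relative, was at 0.050 and 0 CPM in A549 against 0.0743 and 0 CPM in H460. MTAP, the methionine salvage enzyme beside CDKN2A (chr9:21802635-21865969), was higher in H460, at 95.9 and 101 CPM in H460 against 16.5 and 15.9 CPM in A549 (log2 -2.60 ± 0.14, adjusted p = 1.53e-06). Of 12 tested genes of the region 7 were called higher in A549 and 2 in H460, with a median of 0.92. PTPLAD2 gave 4.1 and 4.02 CPM in A549 against no count in H460 (at least 80.5-fold higher). The long non-coding RNA MIR31HG gave 13.6 and 13.9 CPM in A549 against 2.12 and 1.17 CPM in H460 (log2 3.08 ± 0.30, adjusted p = 4.4e-05). KLHL9, an adaptor of a ubiquitin ligase, gave 83 and 76.9 CPM in A549 against 55.2 and 58.9 CPM in H460 (log2 0.49 ± 0.14, adjusted p = 0.0141, not called). The neuronal RNA-binding protein ELAVL2 gave 1.37 and 1.69 CPM in H460 against 0 and 0.18 CPM in A549 (log2 -4.06 ± 0.72, adjusted p = 0.00144, with -3.01 without A549 replicate 1 and -8.65 without A549 replicate 2).

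Targets of p53 were called at a share near that of all genes, 57.7% against 52.6%, with more of the calls higher in A549. Of 26 tested genes 12 were called higher in A549 and 3 in H460, with a median of 0.45, and 13 and 7 without A549 replicate 1. CDKN1A, the p21 inhibitor of cell cycle kinases, gave 241 and 146 CPM in A549 against 50.5 and 41.1 CPM in H460 (log2 2.08 ± 0.24, adjusted p = 0.000113). TP53I3, a quinone oxidoreductase, gave 196 and 200.3 CPM in A549 against 34 and 33.6 CPM in H460 (log2 2.55 ± 0.13, adjusted p = 1.11e-06). MDM2, a ubiquitin ligase, gave 216 and 114.3 CPM in A549 against 185 and 187 CPM in H460 (log2 -0.18 ± 0.26, adjusted p = 0.579, not called). Its relative MDM4 was higher in H460, at 207 and 218 CPM in H460 against 55.5 and 66.5 CPM in A549 (log2 -1.80 ± 0.15, adjusted p = 1.44e-05). GDF15, a secreted stress cytokine that ATF4 also drives, was also higher there, at 64.6 and 60.1 CPM in H460 against 27.3 and 21.8 CPM in A549 (log2 -1.34 ± 0.16, adjusted p = 0.000168).

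Proliferation genes were among the lists with the fewest calls. Of 28 tested genes 4 were called higher in A549 and 5 in H460, with a median of 0.12, against 52.6% called over all genes. The balance turned with the A549 library left out, from 3 and 7 calls with a median of -0.09 without replicate 1 to 10 and 3 with a median of 0.34 without replicate 2. MKI67, a nuclear protein of cycling cells, gave 679 and 458 CPM in A549 against 515 and 481 CPM in H460 (log2 0.19 ± 0.19, adjusted p = 0.416, not called). The D-type cyclins that open the cell cycle were higher in A549, with CCND1 at 462 and 400.4 CPM in A549 against 135 and 122 CPM in H460 (log2 1.75 ± 0.15, adjusted p = 1.81e-05). CCND3 was at 122 and 85.8 CPM in A549 against 32.8 and 30.2 CPM in H460 (log2 1.72 ± 0.19, adjusted p = 8.76e-05). CCND2 was at 0.20 and 0.232 CPM in A549 against 0.371 and 0.368 CPM in H460 and was not tested. MYC, a transcription factor of growth, was higher in H460, at 297 and 269 CPM in H460 against 111 and 169 CPM in A549 (log2 -1.02 ± 0.20, adjusted p = 0.00245). RRM2, a subunit of ribonucleotide reductase, gave 333 and 316 CPM in H460 against 197 and 98.7 CPM in A549 (log2 -1.13 ± 0.28, adjusted p = 0.00756).

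SMARCA4 RNA was present in A549 but lower than in H460. SMARCA4 and SMARCA2 are the alternative ATPases of SWI/SNF, a complex that moves nucleosomes. SMARCA4 gave 130.1 and 121 CPM in H460 against 31.3 and 31.4 CPM in A549 (log2 -2.00 ± 0.14, adjusted p = 5.3e-06). SMARCA2 gave 61.8 and 60.4 CPM in A549 against 56 and 54.1 CPM in H460 (log2 0.15 ± 0.13, adjusted p = 0.363, not called). The subunit SMARCD3 gave 73.8 and 72.1 CPM in H460 against 15.4 and 16.1 CPM in A549 (log2 -2.21 ± 0.15, adjusted p = 4.35e-06). Of the 21 tested genes of SWI/SNF and DNA methylation 1 was called higher in A549 and 6 in H460, with a median of -0.41. In all 33.3% of that list were called, against 52.6% over all genes. The gene higher in A549 was DNMT3B, a DNA methyltransferase, at 28.5 and 20 CPM in A549 against 10.6 and 13.9 CPM in H460 (log2 0.98 ± 0.23, adjusted p = 0.00587). TET1, which oxidises methylated cytosine, was higher in H460 at 8.17 and 10.1 CPM in H460 against 4.05 and 3.71 CPM in A549 (log2 -1.23 ± 0.23, adjusted p = 0.00189).

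Cytokine genes differed in both directions. Of 27 tested genes 16 were called higher in A549 and 8 in H460, with a median of 1.58. Without A549 replicate 1 the calls were 11 and 7 of 21 with a median of 0.68, and without A549 replicate 2 they were 10 and 8 with a median of 0.38. CXCL8, the neutrophil chemoattractant interleukin 8, gave 517 and 613 CPM in H460 against 2.25 and 4.76 CPM in A549 (log2 -7.33 ± 0.35, adjusted p = 6.99e-07). CXCL1, which binds the same receptor, gave 308 and 347 CPM in H460 against 23.3 and 21.9 CPM in A549 (log2 -3.86 ± 0.15, adjusted p = 2.48e-07). IL6, an inflammatory cytokine, gave 106 and 107 CPM in H460 against 13.1 and 44.8 CPM in A549 (log2 -1.88 ± 0.45, adjusted p = 0.00669, with -1.20 without A549 replicate 1 and -2.97 without A549 replicate 2). C3, the central complement protein, was higher in A549, at 524 and 406 CPM in A549 against 1.45 and 2.95 CPM in H460 (log2 7.70 ± 0.33, adjusted p = 3.8e-07). IL18, which is activated by inflammasomes, gave 94.2 and 130.2 CPM in A549 against 4.23 and 5.46 CPM in H460 (log2 4.53 ± 0.23, adjusted p = 9.45e-07). CCL2, which attracts monocytes, gave 4.98 and 5.17 CPM in A549 against 0.0743 and 0.0921 CPM in H460 (log2 5.86 ± 0.41, adjusted p = 6.61e-06). CSF2 and IL33, both low, had no count in H460. CSF2 was at 1.85 and 1.36 CPM in A549 (at least 32-fold higher). IL33 was at 1.33 and 1.31 CPM in A549 (at least 26.2-fold higher).

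Genes of antigen presentation and of the interferon response were divided between the lines, with 71.0% called against 52.6% over all genes. Of 31 tested genes 11 were called higher in A549 and 11 in H460, with a median of -0.0083. B2M, the constant chain of class I molecules, gave 866 and 709.8 CPM in H460 against 384 and 351 CPM in A549 (log2 -1.10 ± 0.15, adjusted p = 0.000382). CD274, the checkpoint ligand PD-L1, gave 76.1 and 86.7 CPM in H460 against 10.03 and 19.3 CPM in A549 (log2 -2.47 ± 0.28, adjusted p = 0.000108). IRF1, a transcription factor of the interferon response, was higher in A549, at 29.8 and 26.8 CPM in A549 against 7.47 and 6.6 CPM in H460 (log2 2.01 ± 0.18, adjusted p = 2.87e-05). IFIT1, an interferon-induced RNA-binding protein, was also higher there, at 8.71 and 4.5 CPM in A549 against 1.6 and 1.32 CPM in H460 (log2 2.18 ± 0.37, adjusted p = 0.0011). OAS2, a sensor of double-stranded RNA, gave 2.19 and 2.09 CPM in H460 against 0.601 and 0.695 CPM in A549 (log2 -1.72 ± 0.33, adjusted p = 0.00206). TMEM173, the adaptor STING, gave 15.8 and 15.6 CPM in A549 against 9.14 and 9.49 CPM in H460 (log2 0.76 ± 0.18, adjusted p = 0.00676, with 0.68 and not called without H460 replicate 1).

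Matrix genes, integrins and proteases differed in both directions. Of 33 tested genes 19 were called higher in A549 and 10 in H460, with a median of 1.90. The calls were 14 and 10 of 29 with a median of 0.50 without A549 replicate 1, and 15 and 11 with a median of 0.98 without A549 replicate 2. TNC, the matrix glycoprotein tenascin C, gave 61.1 and 34.4 CPM in A549 against 0.149 and 0.0921 CPM in H460 (log2 8.62 ± 0.45, adjusted p = 1.12e-06). ITGB4, the laminin receptor subunit of hemidesmosomes, gave 275 and 305 CPM in A549 against 44.5 and 34.8 CPM in H460 (log2 2.87 ± 0.17, adjusted p = 2.16e-06). Both were higher in A549. Within this list the H460-higher genes with the largest differences were SPP1, given above, and the collagenase MMP1, low at 0.743 and 0.583 CPM in H460 against 0 and 0.0772 CPM in A549 (count ratio 17.2, interval 5.47 to 87.1).

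Genes of the hypoxia system were called in both directions before any hypoxia. HIF1A and EPAS1 encode the oxygen-regulated alpha subunits of the hypoxia-inducible factors, ARNT and ARNT2 their partners, and the EGLN enzymes mark the alpha subunits for degradation when oxygen is present. Of 29 tested genes 12 were called higher in A549 and 8 in H460, with a median of 0.28, so that 69.0% were called against 52.6% over all genes. Of these 20 calls 12 were made in the same direction in hypoxia and 3 in the opposite one. HIF1A gave 486 and 588 CPM in A549 against 349 and 333 CPM in H460 (log2 0.66 ± 0.15, adjusted p = 0.00506, with 0.57 and not called without A549 replicate 2 and 0.57 and not called without H460 replicate 2). EPAS1 gave 381 and 453 CPM in A549 against 123 and 112 CPM in H460 (log2 1.83 ± 0.15, adjusted p = 1.67e-05). ARNT2 gave 29.8 and 35.1 CPM in A549 against 4.09 and 3.19 CPM in H460 (log2 3.16 ± 0.21, adjusted p = 4.66e-06). EGLN3 gave 26.8 and 12.7 CPM in A549 against 14.4 and 10.7 CPM in H460 (log2 0.65 ± 0.33, adjusted p = 0.119, not called). Both alpha subunits were higher in A549 with no overlap, as was found between the lines for 81.3% of all tested genes. The glycolytic targets were split by enzyme. HK2, which traps glucose as its phosphate, gave 81.1 and 72 CPM in H460 against 4.28 and 3.99 CPM in A549 (log2 -4.21 ± 0.17, adjusted p = 3.01e-07). PDK1, which keeps pyruvate out of mitochondria, gave 182 and 165 CPM in H460 against 12 and 9.5 CPM in A549 (log2 -4.02 ± 0.17, adjusted p = 3.86e-07). PFKFB3, which makes the activator of phosphofructokinase, gave 385 and 316 CPM in A549 against 44.3 and 40.8 CPM in H460 (log2 3.04 ± 0.16, adjusted p = 1.11e-06). CA12, a membrane carbonic anhydrase, gave 202 and 115 CPM in A549 against 61.3 and 56.7 CPM in H460 (log2 1.43 ± 0.24, adjusted p = 0.00107). Its relative CA9 was low in both, at 6.03 and 2.65 CPM in A549 against 3.68 and 1.11 CPM in H460 (log2 0.88 ± 0.55, adjusted p = 0.202, not called).

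Sterol and fatty acid synthesis was another list with few calls, 5 higher in A549 and 4 in H460 of 28 tested, with a median of -0.034. Here too the balance turned, from 3 and 7 calls with a median of -0.26 without A549 replicate 1 to 8 and 4 with a median of 0.26 without A549 replicate 2. The fatty acid synthase FASN gave 744 and 346 CPM in A549 against 674 and 614 CPM in H460 (log2 -0.24 ± 0.30, adjusted p = 0.514, not called). SCD, which desaturates fatty acids, gave 969 and 916 CPM in A549 against 1286 and 1060 CPM in H460 (log2 -0.32 ± 0.15, adjusted p = 0.107, not called). The called members included STARD4, a cholesterol carrier, at 125 and 129.7 CPM in H460 against 12.3 and 13.1 CPM in A549 (log2 -3.32 ± 0.15, adjusted p = 4.36e-07). SREBF2, the master regulator of the pathway, was also called, at 302 and 262 CPM in H460 against 101 and 109.9 CPM in A549 (log2 -1.42 ± 0.14, adjusted p = 5.19e-05). FADS2, a desaturase, gave 659 and 504 CPM in A549 against 146 and 127 CPM in H460 (log2 2.09 ± 0.17, adjusted p = 1.81e-05). ACLY, which makes cytosolic acetyl-CoA, gave 874 and 752 CPM in A549 against 377 and 339 CPM in H460 (log2 1.18 ± 0.15, adjusted p = 0.000203).

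Oncofetal and imprinted transcripts were more often called higher in A549. Of 16 tested genes 11 were called higher in A549 and 2 in H460, with a median of 1.09. Without A549 replicate 1 the calls were 6 and 2 of 11 with a median of 0.85, and without A549 replicate 2 they were 5 and 2 with a median of 0.38. MEG3, a maternally expressed long non-coding RNA, gave 61.7 and 61.3 CPM in A549 against 0.0743 and 0.246 CPM in H460 (log2 8.49 ± 0.31, adjusted p = 1.87e-07, with 7.90 without H460 replicate 1 and 9.58 without H460 replicate 2). H19, another such RNA, gave 3.4 and 3.58 CPM in A549 against no count in H460 (at least 69.2-fold higher). HMGA2, an architectural chromatin protein of embryos, gave 38.8 and 31 CPM in A549 against 0.371 and 0.368 CPM in H460 (log2 6.55 ± 0.27, adjusted p = 2.94e-07). LIN28B, which blocks let-7 maturation, gave 4.93 and 5.66 CPM in A549 against 0 and 0.0614 CPM in H460 (count ratio 157, interval 43.3 to 1304). The RNA-binding protein IGF2BP3 was higher in H460, at 162 and 186 CPM in H460 against 69.8 and 96.7 CPM in A549 (log2 -1.06 ± 0.18, adjusted p = 0.00104). The zinc finger gene PLAGL1 was also higher there, at 40.2 and 44.1 CPM in H460 against 18.4 and 17.2 CPM in A549 (log2 -1.25 ± 0.16, adjusted p = 0.000192). Cancer-testis antigens, which are normally silent outside the germ line, were mostly not detected, and 7 of 32 passed the filter, 5 called higher in A549 and 2 in H460, against 2 and 2 of 4 without either A549 library. PRAME was in both lines, at 138 and 96.9 CPM in A549 against 51.1 and 53.1 CPM in H460 (log2 1.17 ± 0.18, adjusted p = 0.000666). The MAGE genes differed, with MAGEA1 at 88 and 86.9 CPM in H460 against 0.25 and 0.283 CPM in A549 (log2 -8.34 ± 0.22, adjusted p = 9.85e-08). MAGEA3 was at 57.2 and 47.4 CPM in A549 against 0.111 and 0.0921 CPM in H460 (log2 8.97 ± 0.29, adjusted p = 1.15e-07). MAGEB2 was higher in H460, at 12.9 and 13.6 CPM in H460 against 0.701 and 0.412 CPM in A549 (log2 -4.56 ± 0.30, adjusted p = 4.59e-06). CT45A1 was counted in A549 only, at 1.03 and 1.133 CPM (at least 21.4-fold higher). MAGEA3 and its near-identical copies share reads, so their split is uncertain. MAGEA10 had no count in any library, and MAGEA4 and PAGE5 were each at 0.025 and 0 CPM in A549 with no count in H460.

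Developmental signalling genes were more often called higher in A549. Of 31 tested WNT, NOTCH and Hippo genes 18 were called higher in A549 and 7 in H460, with a median of 1.00, and 12 and 7 of 27 with a median of 0.42 without A549 replicate 2. The lines expressed different WNT ligands, WNT7B in A549 as given above and WNT5A, a ligand of the non-canonical branch, in H460, at 141 and 152 CPM in H460 against 2.03 and 2.42 CPM in A549 (log2 -6.04 ± 0.18, adjusted p = 1.06e-07). The WNT inhibitors SFRP1 and DKK1 were higher in A549. SFRP1 gave 26.5 and 18.5 CPM in A549 against 0.0371 and 0.0307 CPM in H460 (count ratio 671, interval 186 to 5546). DKK1 gave 344 and 348 CPM in A549 against 22.6 and 27.4 CPM in H460 (log2 3.79 ± 0.16, adjusted p = 3.48e-07). AXIN2, a target of the canonical branch, was low, at 4.9 and 2.75 CPM in A549 against 1.26 and 0.675 CPM in H460 (log2 2.00 ± 0.42, adjusted p = 0.00356). NOTCH3, a receptor of smooth muscle and basal cells, gave 685 and 495 CPM in H460 against 10.6 and 8.8 CPM in A549 (log2 -5.92 ± 0.23, adjusted p = 2.27e-07). YAP1, the coactivator held back by Hippo signalling, gave 154 and 169 CPM in A549 against 91.5 and 96.2 CPM in H460 (log2 0.78 ± 0.13, adjusted p = 0.001).

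Homeobox genes of the HOX clusters record the position of cells along the body axis. In this list 66.7% of the tested genes were called, against 52.6% over all genes. Of 33 tested genes 17 were called higher in A549 and 5 in H460, with a median of 0.64, and 13 and 6 of 29 with a median of 0.26 without A549 replicate 2. The lung gene HOXA5 gave 7.43 and 6.17 CPM in H460 against 4.18 and 3.47 CPM in A549 (log2 -0.83 ± 0.24, adjusted p = 0.0176, with -0.74 and not called without H460 replicate 1). HOXB4 gave 2.3 and 2.24 CPM in A549 against 1.08 and 1.47 CPM in H460 (log2 0.82 ± 0.32, adjusted p = 0.0514, with 0.57 and not called without H460 replicate 1 and 1.02 and not called without H460 replicate 2). HOXC8 gave 8.93 and 10.8 CPM in A549 against 9.84 and 8.81 CPM in H460 (log2 0.08 ± 0.21, adjusted p = 0.751, not called). HOXD8 gave 3.73 and 6.1 CPM in A549 against 3.42 and 3.28 CPM in H460 (log2 0.55 ± 0.30, adjusted p = 0.143, not called). Other differences rested on few counts on one side. HOXB2 gave 3.03 and 3.17 CPM in A549 against 0.0371 and 0.0921 CPM in H460 (log2 5.46 ± 0.48, adjusted p = 2.61e-05, with 6.21 without H460 replicate 2). HOXD10 gave 2.3 and 2.57 CPM in A549 against 0.0743 and 0 CPM in H460 (count ratio 72.5, interval 19.8 to 603). HOXA9 gave 3.49 and 5.13 CPM in H460 against 0.751 and 0.695 CPM in A549 (log2 -2.57 ± 0.33, adjusted p = 0.000241). HOXD13, the last gene of its cluster, was in H460 only, at 1.93 and 1.44 CPM (at least 43.7-fold higher).

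Switch genes lay side by side at several places in the genome. Counted along the order of tested genes, 10 runs of at least 3 neighbouring switch genes of the same direction were found. Of these 5 were on chromosome 19, with genes of ZNF names that were higher in H460 and at or near 0 in A549. These and the gene families below were chosen after their values were seen. The longest run held ZNF790-AS1, ZNF790, ZNF345, ZNF829, ZNF568 and ZNF420, between 37288452 and 37620651 on chromosome 19 (GRCh37). KRAB zinc finger proteins, to which most of these clustered genes belong, bind DNA and recruit repressors, often at transposable elements. ZNF345 gave 9.66 and 10.4 CPM in H460 against no count in A549 (at least 265-fold higher). ZNF568 gave 3.94 and 5.31 CPM in H460 against no count in A549 (at least 123-fold higher). ZNF420 gave 7.8 and 7.49 CPM in H460 against 0 and 0.0515 CPM in A549 (count ratio 301, interval 82.8 to 2491). Their start regions are shown because these 3 genes, with separate promoters, each had at most 3 counts in A549. The sequences run from 250 bases before to 50 bases after the start, are from RefSeq on GRCh38.p14, and have each CG, the dinucleotide that DNA methylation acts on, in capitals. They lie at chr19:36850626-36850925, chr19:36916082-36916381 and chr19:37078183-37078482, all on the plus strand.
ZNF345: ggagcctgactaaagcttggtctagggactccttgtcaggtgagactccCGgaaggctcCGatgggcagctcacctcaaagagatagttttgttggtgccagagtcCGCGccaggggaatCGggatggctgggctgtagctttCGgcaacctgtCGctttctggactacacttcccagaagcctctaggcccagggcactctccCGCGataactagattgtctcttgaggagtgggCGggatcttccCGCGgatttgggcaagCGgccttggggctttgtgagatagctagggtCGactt
ZNF568: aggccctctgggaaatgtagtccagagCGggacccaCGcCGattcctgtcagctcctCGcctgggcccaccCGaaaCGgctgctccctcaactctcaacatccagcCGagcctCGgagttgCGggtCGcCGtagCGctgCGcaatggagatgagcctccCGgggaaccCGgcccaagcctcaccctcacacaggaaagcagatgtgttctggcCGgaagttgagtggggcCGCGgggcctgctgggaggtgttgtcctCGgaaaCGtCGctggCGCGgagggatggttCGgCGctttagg
ZNF420: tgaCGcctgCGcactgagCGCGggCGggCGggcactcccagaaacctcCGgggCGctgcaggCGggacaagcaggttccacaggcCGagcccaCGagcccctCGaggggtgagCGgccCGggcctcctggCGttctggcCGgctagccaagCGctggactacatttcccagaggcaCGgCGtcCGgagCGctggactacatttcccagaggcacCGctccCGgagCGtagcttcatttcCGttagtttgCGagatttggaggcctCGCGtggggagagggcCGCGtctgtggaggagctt
The 3 windows hold 14, 25 and 30 CG, read on one strand since the motif is its own reverse complement. Of 35116 RefSeq promoters of the same length 96.0% hold at least 1 CG, and 50.3%, 32.0% and 22.4% hold at least as many as these 3. A count of letters is a description of the window, and DNA methylation was not measured.

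The zinc finger genes of chromosome 19 went against the rest of their chromosome. Of 183 tested genes there whose names begin with ZNF, 33 were called higher in A549 and 71 in H460, with a median of -0.23. These were 18.0% and 38.8%, against 27.0% and 25.6% over all genes. Of the 183, 26 were switch genes of H460. The other 829 tested genes of chromosome 19 gave 355 and 95 calls, with a median of 0.44. ZNF genes on other chromosomes leaned to H460 as well, with 39 and 74 of 245, or 15.9% and 30.2%, and a median of -0.17. The further runs higher in H460 were ZNF136, ZNF44, ZNF799 and ZNF443, then ZNF738, ZNF493 and ZNF100, then ZNF528, ZNF808, ZNF701 and ZNF137P, and last ZNF611, ZNF600 and ZNF28. Many of the genes in these runs were counted in normoxic RKO too, scaled jointly with all normoxic libraries. There ZNF738 was at 33.3 and 41.4 CPM and ZNF28 at 27.8 and 28.2 CPM. Others were near absent there, such as ZNF829 of the longest run at 0 and 0.0262 CPM. ZNF738 had no count in A549 and 10.2 and 11.8 CPM in H460 (at least 291-fold higher). ZNF28 gave 12.6 and 13.8 CPM in H460 against 0.025 and 0.0257 CPM in A549 (count ratio 523, interval 144 to 4328).

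The clustered protocadherins of chromosome 5 and the chorionic gonadotropin genes formed runs of switch genes higher in A549. Protocadherins are adhesion proteins that give neurons an identity, and each is read from its own promoter. Of 13 PCDHA genes 6 were tested, and these were called higher in A549, against 27.0% of all tested genes. Of the 6, 5 were switch genes, which passed the filter through A549 alone. Their direction was therefore fixed by the filter. PCDHA4 gave 5.38 and 4.58 CPM in A549 against 0 and 0.0614 CPM in H460 (count ratio 148, interval 40.8 to 1229). The PCDHA transcripts share their last exons, so their split is uncertain. Of 10 tested PCDHB genes 6 were higher in A549 and 3 in H460, and of 19 PCDHG genes 2 were higher in A549 and 15 in H460, with medians of 4.05 and -2.05. The hormone genes CGB, CGB5, CGB8 and CGB7 with their neighbour NTF4 formed a run on chromosome 19. CGB8 gave 12.6 and 18.1 CPM in A549 against 0 and 0.0614 CPM in H460 (count ratio 456, interval 126 to 3766), with the limit that these copies are nearly identical. On chromosome X there were runs of CT45A1, LOC102723631 and SAGE1 and of GABRQ, MAGEA6 and MAGEA2.

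Called genes were not spread evenly over the chromosomes. On chromosome 11 482 of 828 tested genes, 58.2%, were called higher in A549 and 77, 9.30%, in H460, with a median log2 difference of 0.76. Chromosomes 8, 17 and 19 leaned the same way, with 46.1%, 40.8% and 38.3% called higher in A549. Chromosome 22 leaned the other way, with 14.7% higher in A549 and 45.6% in H460 and a median of -0.53, and so did chromosome 2, with 17.0% and 38.7%. Genes of one chromosome share its copy number, which was not measured, and they are not independent replicates.

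**Figure D5:**
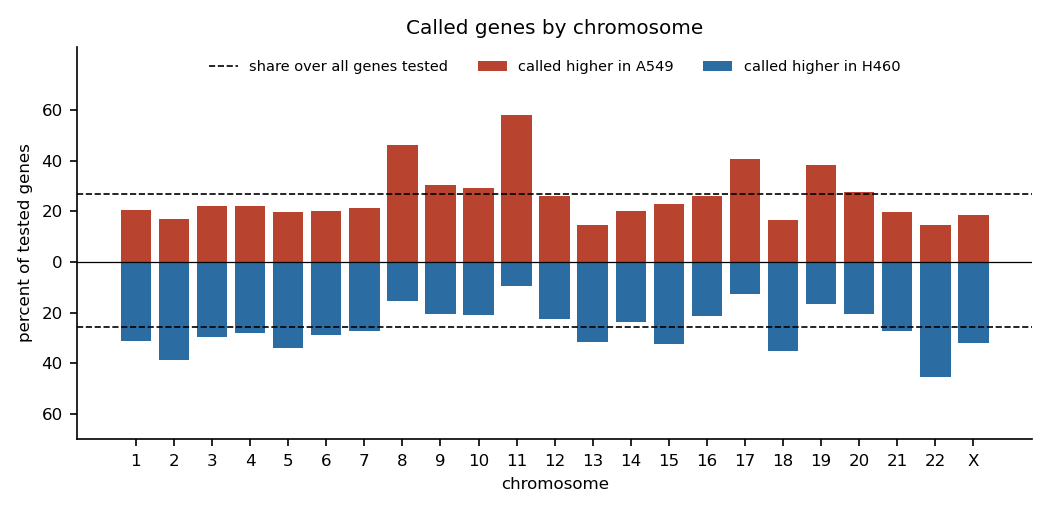
For each chromosome, the percent of tested genes called higher in A549 (red, upwards) and higher in H460 (blue, downwards), with dashed lines at 27.0% and 25.6%, the shares over all tested genes. Chromosomes 11 (58.2% and 9.30%) and 22 (14.7% and 45.6%) stand furthest to either side.

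The hypoxic libraries of the same lines gave a further measurement of the difference between lines, with libraries not used above. There 14728 genes were tested and 9364, 63.6%, were called, 4966 higher in A549 and 4398 in H460. Scaling by library size alone moved the median log2 difference of all genes in hypoxia from 0.054 to 0.34 and the calls to 6160 and 3382. TMM factors were 1.12 and 1.09 in the hypoxic A549 libraries and 0.886 and 0.925 in the hypoxic H460 libraries, against 0.984 to 1.01 in normoxia. Of 7489 genes called in normoxia and tested in hypoxia, 5770, 77.0%, were called in the same direction and 200 in the opposite one. The same direction was found for 3141 of 3938 A549-higher genes and 2629 of 3551 H460-higher genes.

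Some genes with large differences were called in the same direction in hypoxia and others were not. CDKN1A was not called there (log2 0.039 ± 0.13, adjusted p = 0.807), nor was EPHX1 (log2 -0.45 ± 0.12, adjusted p = 0.00963), and HOXD13 and LCN2 did not pass the filter. T was at 1.6 and 1.29 CPM in A549 against 2494 and 2720 CPM in H460 (log2 -10.81 ± 0.22, adjusted p = 2.92e-07). KRT19 was at 0.726 and 0.591 CPM in A549 against 1334 and 1210 CPM in H460 (log2 -10.90 ± 0.22, adjusted p = 2.92e-07). PRDX2 was at 0.32 and 0.437 CPM in A549 against 149 and 147 CPM in H460 (log2 -8.62 ± 0.19, adjusted p = 2.92e-07). KRT81 was at 3587 and 3655 CPM in A549 against 22.1 and 18.4 CPM in H460 (log2 7.49 ± 0.20, adjusted p = 3.3e-07). CDH1 was at 84.3 and 92.7 CPM in A549 against 0.374 and 0.561 CPM in H460 (log2 7.53 ± 0.21, adjusted p = 4.21e-07). From T to CDH1, the lines did not overlap in any of these 5 genes under either oxygen condition. In normoxia this held for 81.3% of all tested genes. DUSP6 gave 2.91 and 4.09 CPM in A549 against 256 and 230.5 CPM in H460 (log2 -6.13 ± 0.20, adjusted p = 7.39e-07). CXCL8 gave 2.01 and 1.59 CPM in A549 against 1438 and 1215 CPM in H460 (log2 -9.52 ± 0.23, adjusted p = 2.95e-07). SMARCA4 gave 19.9 and 19.6 CPM in A549 against 69 and 73.9 CPM in H460 (log2 -1.86 ± 0.12, adjusted p = 1.44e-05). Of the 16 ATF4 and serine pathway genes called higher in H460 and the 4 called higher in A549 in normoxia, 18 were called in the same direction in hypoxia and 1 in the opposite one.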

How the data were processed

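Poly(A)+ RNA of 12 cultures was sequenced, and the 4 normoxic A549 and H460 libraries were compared. The authors trimmed reads, aligned them with TopHat2 2.0.13 to GRCh37/hg19, removed alignments of low mapping quality and marked duplicates with Picard 1.129. They then counted exon reads per gene with HTSeq 0.6.1 in reverse-stranded mode, so that reads of paralogs with several alignments could be lost; versions are per the submitters' processing notes. The deposited counts are whole reads per gene and were not normalised. The deposited RPKM values had been scaled by the authors by exon length and library total, with a tool not given in the sources used here.

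From the counts, genes over 0.5 CPM in at least 2 of the 4 libraries were fitted by line with TMM scaling in edgeR 4.0.16 (R 4.3.3). Quasi-likelihood F tests were two-sided, with Benjamini-Hochberg adjustment over all tested genes, and a gene was called at an adjusted p under 0.1 and a fold over 1.5, the thresholds of the study. edgeR gave all p-values of the text unless another tool is named. The hypoxic libraries were fitted in the same way, and an interaction of line and oxygen was fitted over the 8 libraries of both lines. Alternatives were DESeq2 1.42.0, other scalings, filters and thresholds, a joint fit, a replicate block, limma 3.58.1 on log2 of RPKM plus 0.1 or 1, and leaving out each library.

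The comparison, its members and the gene lists were chosen with earlier results of these data known. Named genes were, in each direction, the 8 called genes with the highest CPM among those with at most 3 counts in the other line, the 8 with the largest log2 difference among those with at least 20 counts in the lower line, a mean of at least 100 counts and no overlap, and the 5 with the largest difference in CPM. To these came the key genes of each list and the 2 called genes per direction and list with the largest log2 difference. Names starting with LOC, MIR or SNOR and the like were left out of the first 3 sets, and sex-specific genes were not described. Some genes that this rule names are not reported here. Runs of neighbouring genes and gene families were chosen after their values were seen. Promoter sequences came from RefSeq on GRCh38.p14, a later build than that of the counts, and were matched by gene symbol.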

Additional observations from a re-analysis of the deposited data

Results flagged for a closer look

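No group had enough libraries for a test of single outlying samples. The difference between lines was compared between normoxia and hypoxia with an interaction term in edgeR over 8 libraries. Over all genes 5866 of 15228 passed at an adjusted p under 0.1, and 6356 with scaling by library size alone. Of 194 named genes tested, 73 passed, and the 17 given here were tested under both oxygen conditions and changed their call. NKX2-1 (interaction -5.45, adjusted p = 0.0127) and CCND2 (interaction -1.85, adjusted p = 0.0547) passed as well. They are not among the 17, since neither was tested in normoxia, and both were called higher in H460 in hypoxia. Values are the log2 difference of A549 to H460 in hypoxia minus that in normoxia.

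ENO2, the neuronal enolase and a glycolytic enzyme, was the 1 gene called in opposite directions, at a log2 difference of 1.26 in normoxia and -1.68 in hypoxia (interaction -2.95, adjusted p = 0.000829). Genes called higher in A549 in normoxia and not called in hypoxia had negative interactions. The p53 target CDKN1A gave -2.06, from a log2 difference of 2.08 to 0.039. EPAS1, an alpha subunit of the hypoxia-inducible factors, gave -1.52, and its relative HIF1A gave -1.04. The filament gene VIM gave -1.19 and ferritin FTH1 gave -0.94. The actin gene ACTG1 gave -0.83 and YAP1 gave -0.65. The desaturase SCD, called higher in H460 in hypoxia alone, gave -0.87.

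Positive interactions were found for 8 genes. FGB, the fibrinogen beta chain, went from 0.33 to 2.78 (interaction 2.45, adjusted p = 0.0393). The NRF2 pathway genes AKR1B10 and GCLM, called in neither direction in normoxia, gave 1.65 and 1.39 and were called higher in A549 in hypoxia. SMARCA2, an ATPase of SWI/SNF, gave 1.19 and HOXD8 gave 1.11, with the same change of call. Genes called higher in H460 in normoxia alone were EPHX1 at 1.68, RRM2 at 1.131 and UCHL1 at 0.76. With scaling by library size alone, chosen after seeing the data, 16 of the 17 still passed; the exception was YAP1 (adjusted p = 0.107).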

How the results depend on the processing

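Against 4008 genes called higher in A549 and 3796 in H460, the counts were 3870 and 3640 with DESeq2, 4064 and 3685 with library size alone, 4555 and 4259 without a filter, 2937 and 2774 with a filter at 5 CPM, and 3180 and 2925 with limma and a pseudocount of 1. A fold over 2 left 2775 and 2479. Between 67.3% and 100% of the calls that could be tested were kept under these and the other alternatives, and 0 turned. Leaving out each normoxic library in turn gave 3437 to 3584 genes higher in A549 and 2853 to 3697 in H460; the lone library left was then assumed to vary like the other line, and a gene counted only in the line of that library could not pass the filter. For the hypoxic libraries the ranges were 4025 to 4640 and 3787 to 4225. The labels share replicate numbers, but nothing says what a number marks, and deviations of same-numbered libraries correlated at 0.162 over genes with only 2 pairs. With a replicate block the counts were 3980 and 3824, with 7734 calls kept, and 4957 and 4432 in hypoxia. Of 3097 values of named genes under an alternative 3032 kept their side of the threshold and their direction, 48 lost the call, 16 gained one and 1 reversed. The reversed gene was SOX2, not called at 0.20 with all libraries, at -0.69 without A549 replicate 1 (adjusted p = 0.0552) and 0.82 without A549 replicate 2. Of 884 counts over gene lists 808 stayed within 1.5 times. Depth limits genes near 3 counts, and with 2 libraries a line the spread of each gene is borrowed from the others.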

Other observations

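Gene families outside the lists were chosen after their values were seen, and are given against 52.6% of all tested genes called, 27.0% higher in A549 and 25.6% in H460. Replication-dependent histone genes, whose transcripts mostly lack a poly(A) tail and are captured in part by poly(A) selection, were mainly higher in H460: of 45 tested genes with names beginning with HIST, 5 were called higher in A549 and 31 in H460, with a median log2 difference of -1.76. Of 101 tested genes with names beginning with RPL or RPS and a number, 9 were called higher in A549 and 27 in H460. Their median was -0.31, and 35.6% were called and 26.7% were higher in H460. Not all of these need encode ribosomal proteins, since a match by name, used for all families here, can take in other genes and miss members. Genes named COL with a number and the letter A, mostly collagens, were called in both directions. Of 37 tested 18 were higher in A549 and 16 in H460, with a median of 0.43. Of 21 tested genes named ITGA or ITGB with a number, 10 were called higher in A549 and 4 in H460, with a median of 0.52. Integrins named with a letter in place of the number are left out. Of 13 tested keratin genes 9 were called higher in A549 and 1, KRT19, in H460, with a median of 1.16.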
